A study of Mus musculus with 9 samples.

Results

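A set of 10 genes of trophoblast and placenta was followed in wild-type mouse embryonic stem cells as they differentiated in embryoid bodies: Cdx2, Elf5, Tfap2c, Gcm1, Tpbpa, Prl3d1, Syna, Ctsj, Plac1 and Csf1r. They are the rows of the gene table whose Ensembl identifiers carry these symbols in GENCODE M21, and all 10 were found, 1 row each, among the 54232 genes of the table. An embryoid body is an aggregate in which pluripotent cells differentiate. Polyadenylated RNA was sequenced from 3 groups of 3 libraries, named EBD2, EBD5 and EBD6, and the labels do not say what the number in a group's name stands for. All 3 groups share the wild-type genotype and the label of embryonic stem cells, and differ in the labelled differentiation alone; no cell line, agent or sex is given. All 10 embryonic stem cell markers of a fixed list had counts in every group, with a summed level of 2330 to 2620 CPM (a gene's counts per 1000000 counts of the scaled library) in EBD2, 1920 to 2050 in EBD5 and 1420 to 1590 in EBD6.

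Trophoblast is the outer lineage of the early embryo and forms the fetal part of the placenta. Cdx2, Elf5 and Tfap2c encode transcription factors of its stem cells, and Gcm1 a factor that drives cells towards the fused syncytiotrophoblast of the labyrinth. Spongiotrophoblast cells make Tpbpa, giant cells make placental lactogens such as Prl3d1, and the labyrinth uses the fusion protein syncytin A, the product of Syna. Mouse embryonic stem cells are known to contribute poorly to trophoblast.

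All 10 genes had their highest mean level in EBD6. Together they summed to 42.6 ± 0.809 CPM in EBD2 (SD, n = 2), 61.2 ± 3.26 in EBD5 (n = 3) and 208 ± 2.33 in EBD6 (n = 2), where n counts samples after near-identical libraries were pooled. Most of the sum outside EBD6 was Tfap2c. The 6 genes of differentiated placental cells summed to 4.06 ± 0.0177 CPM in EBD2, 6.97 ± 0.426 in EBD5 and 84.5 ± 5.37 in EBD6. The 10 genes held 0.00428% to 0.00447% of a library's counts in EBD2, 0.00547% to 0.00615% in EBD5 and 0.0214% to 0.0224% in EBD6.

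Of the 9 genes that passed the filter on low counts, 4 rose and 1 fell in EBD5 against EBD2, where 34.9% of all tested genes rose and 35.1% fell (edgeR's quasi-likelihood F test, Benjamini-Hochberg adjusted p under 0.05 over 16168 genes). Every library of EBD5 was above every library of EBD2 for 4 of the 10 genes and for 39.0% of tested genes. All 9 rose in EBD6 against EBD5, where 36.9% of tested genes rose and 33.3% fell, and the EBD6 libraries lay above the EBD5 libraries for 9 of the 10 and for 39.1% of tested genes. All 9 also rose in EBD6 against EBD2, beside 33.8% of tested genes that rose and 32.3% that fell, and EBD6 libraries lay above EBD2 libraries for 10 of the 10 and for 37.9% of tested genes. Their median log2 fold change was 0.42, 5.02 and 6.62 in these comparisons, or 0.42, 4.53 and 6.46 with groups of 0 counts set at their bound, and that of all tested genes was -0.01, 0.04 and 0.01. Of the 9, 5 (Cdx2, Tpbpa, Prl3d1, Ctsj and Csf1r) passed the filter through their EBD6 counts alone and so had to differ there; these counts and medians describe the genes and support nothing further. The comparisons share groups, so their values stand side by side and were not set against each other.

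**Figure D1:**
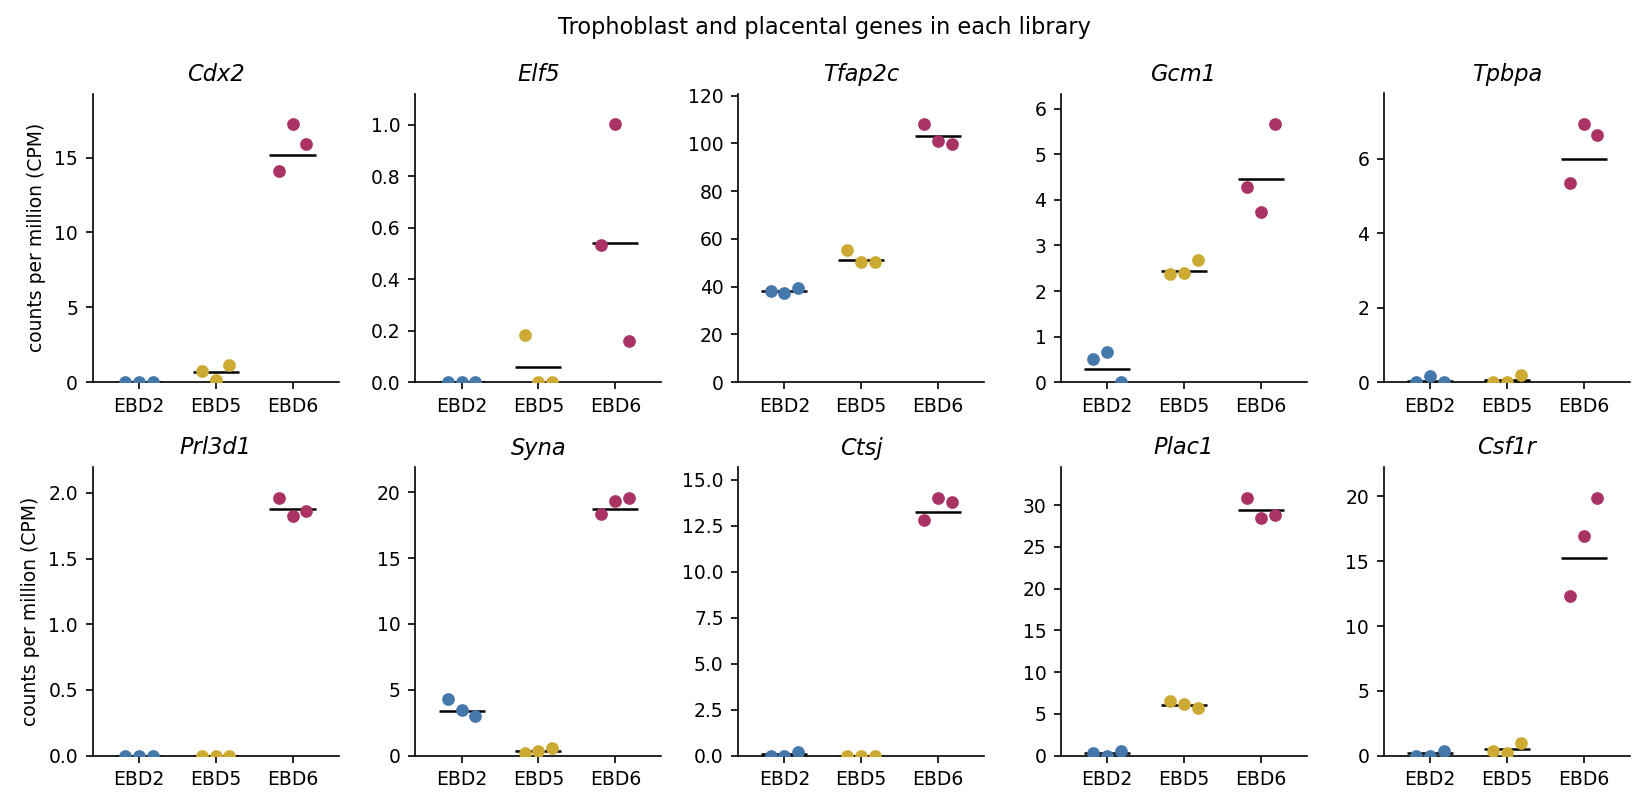
Level of each of the 10 genes in CPM (vertical axis, from 0, with a scale for each panel) in the 9 libraries; points are libraries in the order of their replicate numbers, and black lines are group means over 2, 3 and 2 samples. Tfap2c was present in every library, Syna was lower in EBD5 than in EBD2, and Prl3d1, Ctsj and Tpbpa were at or near 0 in EBD2 and EBD5.

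**Figure D2:**
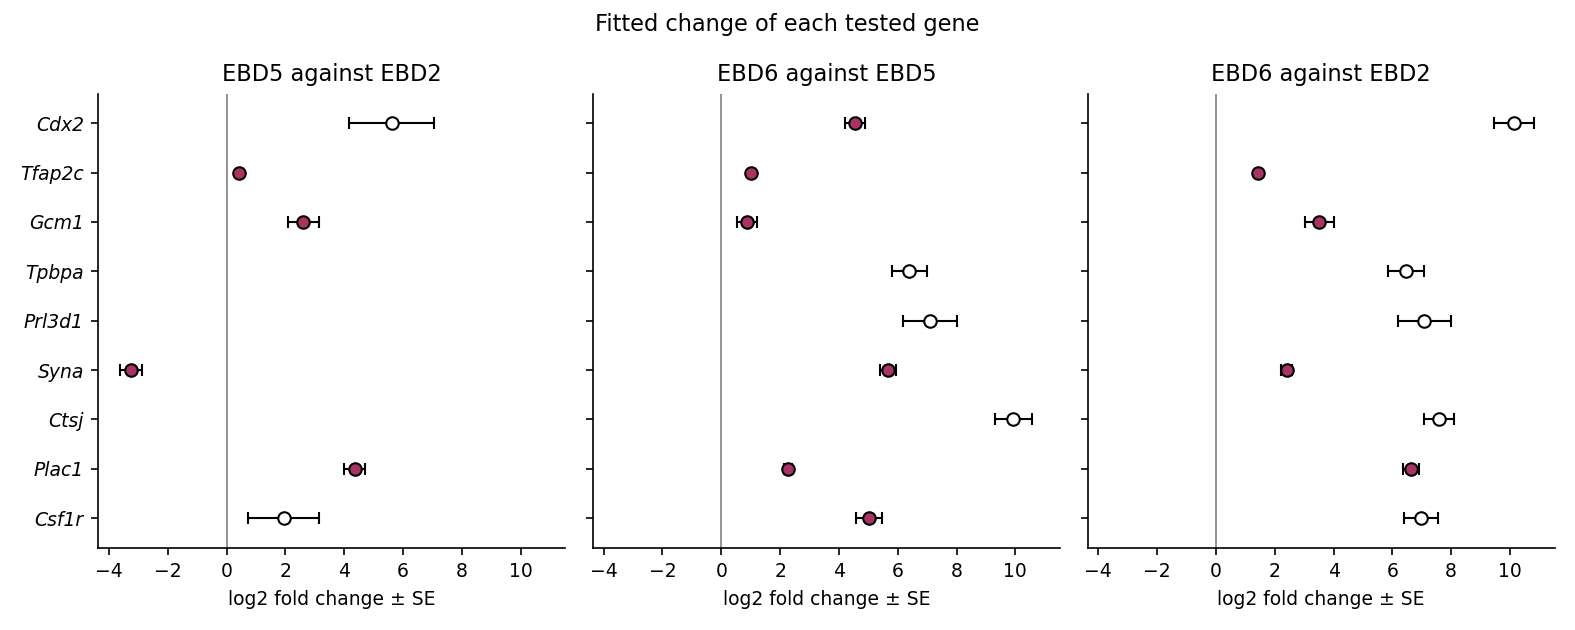
Fitted log2 fold change ± SE (horizontal axis) of the 9 tested genes (vertical axis) in the 3 comparisons; open circles mark genes with at most 3 counts in 1 of the groups compared, whose fitted value depends on the prior count, and genes with at most 3 counts in both are not drawn. Syna in EBD5 against EBD2 is the value below 0, and Tfap2c and Gcm1 are the smallest in EBD6 against EBD5.

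The sequences before the start sites are shown for Cdx2 and for Tpbpa, Ctsj and Prl3d1 on chromosome 13, which had few or no counts in EBD2 and EBD5, together with Tpbpb, a close copy of Tpbpa that had none at all. They are from RefSeq (GRCm38.p6, the build of mm10), 5′ to 3′ on the gene's strand, and each is the part of the 250 bases before the RefSeq start that lies outside annotated exons. Capitals in Tpbpa mark motif matches, and capitals in Tpbpb mark the 10 of its 217 bases that are not aligned to the same base in Tpbpa.
Cdx2 (chr5:147307271-147307499, minus strand): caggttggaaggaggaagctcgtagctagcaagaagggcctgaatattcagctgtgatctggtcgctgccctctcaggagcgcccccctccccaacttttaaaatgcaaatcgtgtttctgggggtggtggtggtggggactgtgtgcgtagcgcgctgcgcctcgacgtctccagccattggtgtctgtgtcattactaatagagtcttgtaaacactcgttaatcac
Tpbpa (chr13:60941985-60942186, minus strand): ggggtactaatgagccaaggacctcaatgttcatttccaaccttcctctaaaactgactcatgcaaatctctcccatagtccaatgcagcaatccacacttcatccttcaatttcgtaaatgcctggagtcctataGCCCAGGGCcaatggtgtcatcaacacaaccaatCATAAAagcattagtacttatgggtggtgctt
Tpbpb (chr13:60904881-60905097, minus strand): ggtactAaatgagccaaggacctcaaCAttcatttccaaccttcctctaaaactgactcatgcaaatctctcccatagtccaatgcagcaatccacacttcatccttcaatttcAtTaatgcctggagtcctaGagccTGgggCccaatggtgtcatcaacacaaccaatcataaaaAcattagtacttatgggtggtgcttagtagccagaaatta
Ctsj (chr13:61005960-61006175, minus strand): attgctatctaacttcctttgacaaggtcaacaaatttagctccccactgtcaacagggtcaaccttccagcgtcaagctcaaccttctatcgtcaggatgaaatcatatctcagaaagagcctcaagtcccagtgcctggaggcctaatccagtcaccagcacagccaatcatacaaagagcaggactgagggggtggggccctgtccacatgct
Prl3d1 (chr13:27093939-27094188, plus strand): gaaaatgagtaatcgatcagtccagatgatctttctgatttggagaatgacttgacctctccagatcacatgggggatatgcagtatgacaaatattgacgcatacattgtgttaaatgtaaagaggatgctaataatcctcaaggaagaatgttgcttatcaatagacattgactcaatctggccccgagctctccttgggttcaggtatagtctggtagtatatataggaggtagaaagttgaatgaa

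A set of motifs was sought on both strands of the whole 250-base windows. The TATA box was searched with the letters TATAAA, the site of GATA factors with AGATAA, that of TEAD factors with GGAATG, that of AP-2 (the family of Tfap2c) with GCCNNNGGC, that of GCM factors with ATGCGGGT and that of CDX factors with TTTATG. Of 32841 promoters of the table, 12.4% held the TATA box, 9.99% the GATA, 12.6% the TEAD, 13.7% the AP-2, 0.207% the GCM and 10.8% the CDX letters. The table held 10 promoters of 8 of the genes. Tpbpa had an AP-2 match 114 bases before its start and a CDX match 80 bases before it; its copy Tpbpb had the same motifs, at 115 and 80 bases. Cdx2 had an AP-2 match 16 bases before the start, within annotated exon and so not printed. Elf5 had a TEAD match before its first start, in a window wholly within annotated exon, and a CDX match 37 bases before its second. Plac1 had a GATA match and Syna an AP-2 match, while these letters were not found before Ctsj, Gcm1 or Prl3d1. A match is a run of letters, not a bound site.

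Tfap2c (ENSMUSG00000028640, chromosome 2, 172549593 to 172558622, plus strand, mm10) encodes AP-2 gamma, a factor of trophoblast, primordial germ cells and surface ectoderm. Its level was 38.1, 37.2 and 39.5 CPM in EBD2 replicates 1 to 3, 55.4, 50.3 and 50.1 in EBD5 and 108, 101 and 99.6 in EBD6. The libraries of the 3 groups did not overlap. Tfap2c rose 1.34-fold from EBD2 to EBD5 (log2 0.42 ± 0.08 SE; edgeR quasi-likelihood, adjusted p = 0.00083), which a test against a fold of 1.5 did not call (adjusted p = 1). It rose 2.01-fold from EBD5 to EBD6 (1.01 ± 0.07; edgeR adjusted p = 5.77e-07). Over all alternatives that log2 value ran from 0.64 to 1.06, and from 0.97 to 1.05 when a library was left out. Tfap2c was the only one of the 10 genes with more than 5 CPM in EBD2.

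Genes of the other cell types in which Tfap2c is known did not all move with it. Of all tested genes, 34.9% rose and 35.1% fell in EBD5 against EBD2, and 36.9% rose and 33.3% fell in EBD6 against EBD5. Of 10 primordial germ cell markers, 7 fell and 2 rose in EBD5 against EBD2, and 5 rose in EBD6 against EBD5 (8 rose and 1 fell with an offset for GC content and length); their summed level was 633 to 646 CPM in EBD2, 462 to 473 in EBD5 and 550 to 573 in EBD6. Of 12 surface ectoderm markers 7 were tested, of which 4 rose and 2 fell in EBD6 against EBD5. The list summed to 274 to 297 CPM in EBD5 and 278 in both samples of EBD6. Epcam held most of these sums, with means of 233 CPM in EBD5 and 179 in EBD6. For 8 of the 12, every EBD6 library was above every EBD5 library, beside 39.1% of tested genes. Mean levels of Grhl3, Trp63, Wnt6 and Tfap2b went from 13.8, 0.3045, 0.2415 and 0.12 CPM to 39.4, 8.36, 8.635 and 1.95. That of Gabrp went from 4.525 to 1.835 CPM. Trp63, Wnt6 and Tfap2b passed the filter through EBD6 alone and so had to differ there. The part of these cells in the Tfap2c values was not tested. In bulk RNA, fewer cells of a type and less RNA per cell cannot be told apart.

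Cdx2 (ENSMUSG00000029646, chromosome 5, 147300805 to 147307270, minus strand) encodes a homeodomain factor needed for trophectoderm and also active in the posterior embryo. It had 0 counts in all 3 EBD2 libraries, which allows up to 0.169 CPM over the group. It had 0.731, 0.170 and 1.15 CPM in EBD5 (11 counts in all) and 14.1, 17.2 and 15.9 CPM in EBD6 (465 counts). Every EBD5 library was thus above EBD2 and every EBD6 library above EBD5. For EBD5 replicate 2 this rests on 1 count, near the 0.169 CPM that 0 counts over EBD2 allow. Cdx2 was at least 3.85-fold higher in EBD5 than in EBD2 (edgeR adjusted p = 0.00564). This is against 3 counts over EBD2, with the 11 EBD5 counts taken as exact. It rose 23.1-fold from EBD5 to EBD6 (log2 4.53 ± 0.34; edgeR adjusted p = 1.35e-06), a log2 value of 3.89 with an offset for GC content and length. Cdx2 passed the filter through EBD6 alone and so had to differ there.

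Cdx2 is also known in the posterior streak and tail. Of 9 tested markers of these, 8 rose in EBD6 against EBD5 (5 with the GC and length offset), where 36.9% of all tested genes rose. In EBD5 against EBD2, 5 rose and 3 fell, beside 34.9% and 35.1% of all tested genes. Of the 12 listed, 2 (Cdx4 and Wnt3a) were at 0 in EBD5 alone, while Cdx2 was at 0 in EBD2, and the summed level was 18.5 to 20.5 CPM in EBD2, 20.8 to 27.3 in EBD5 and 88.1 to 105 in EBD6. T, the brachyury gene of the streak, rose from 1.72 ± 0.178 CPM in EBD5 to 26.6 ± 1.8 in EBD6 (log2 3.95 ± 0.2; edgeR adjusted p = 5.27e-08). Cdx1 and Cdx4, the paralogs of Cdx2 that mark the tail and not trophoblast, held 12 and 20 counts over EBD2, 2 and 0 over EBD5 and 33 and 17 over EBD6, and did not pass the filter. Wnt8a, a streak ligand gene, had 111 counts in EBD2, 6 in EBD5 and 35 in EBD6. The 5 markers that rose in EBD5 against EBD2 were Sp5, Evx1, Mixl1, Wnt3 and Fgf8, which were highest in EBD6, as Cdx2 was. Sp5 had 0.0416, 0.886 and 14.65 CPM in EBD2, EBD5 and EBD6, and Evx1 0.166, 2.34 and 11.7. Of these, Sp5 passed the filter through EBD6 alone and so had to differ there. Mixl1 had 0.773, 5.02 and 10.6 CPM, Wnt3 0.467, 3.95 and 6.755, and Fgf8 3.87, 9.22 and 15.2. The part of posterior cells in the Cdx2 values was not tested.

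Elf5 (ENSMUSG00000027186, chromosome 2, 103411688 to 103450989, plus strand), whose ETS factor maintains trophoblast stem cells, was near the limit of detection in all groups. It had 0 counts in EBD2, 1 count in EBD5 (replicate 1) and 3, 11 and 2 counts in EBD6 replicates 1 to 3. These 16 counts are a ratio of 9.21 to EBD5 (95% counting interval 1.43 to 386). Taken as exact, they are at least 3.23-fold above EBD2. Elf5 did not pass the filter and was not tested. Replicate 2 held most of the counts, and 5 were left without it.

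Gcm1 (ENSMUSG00000023333, chromosome 9, 78051924 to 78065624, plus strand) had 3, 4 and 0 counts in EBD2, 13, 14 and 14 in EBD5 and 24, 41 and 70 in EBD6. As CPM these were 0.513, 0.658 and 0 in EBD2, 2.38, 2.39 and 2.69 in EBD5 and 4.28, 3.73 and 5.66 in EBD6, with no overlap between groups. Gcm1 rose 6.12-fold from EBD2 to EBD5 (log2 2.61 ± 0.54; edgeR adjusted p = 0.00121). The 1.86-fold rise from EBD5 to EBD6 (0.89 ± 0.34; edgeR adjusted p = 0.0332) was not called by DESeq2 (adjusted p = 0.177), against a fold of 1.5 (0.196) or with the GC and length offset (0.0603). It was also lost without any 1 EBD5 library (adjusted p = 0.0934, 0.0622 and 0.0516 without replicates 1, 2 and 3) and without EBD6 replicate 1 (0.0543) or 3 (0.109). From EBD2 to EBD6 it rose 11.4-fold (3.51 ± 0.49; edgeR adjusted p = 8.03e-05).

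Syna (ENSMUSG00000085957, chromosome 5, 134558146 to 134560171, minus strand) is an envelope gene of retroviral origin that fuses labyrinth trophoblast. It had 4.28, 3.46 and 3.03 CPM in EBD2, 0.183, 0.341 and 0.576 in EBD5 and 18.4, 19.3 and 19.6 in EBD6. EBD5 was lowest and EBD6 highest, without overlap between groups. Syna fell 9.55-fold from EBD2 to EBD5 (log2 -3.26 ± 0.38; edgeR adjusted p = 2.04e-05) and rose 50.9-fold from EBD5 to EBD6 (5.67 ± 0.28; edgeR adjusted p = 4.41e-08). It was 5.33-fold higher in EBD6 than in EBD2 (2.41 ± 0.19; edgeR adjusted p = 1e-06). Synb, the gene of syncytin B in the other syncytial layer, had 0 counts in all 9 libraries, which allows up to 0.169, 0.178 and 0.103 CPM over EBD2, EBD5 and EBD6; the longest transcripts of Syna and Synb were 74.2% identical. Syna overlaps an antisense gene, Gm42884, which had at most 1 count in any library.

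Tpbpa (ENSMUSG00000033834, chromosome 13, 60938492 to 60941984, minus strand), a marker of spongiotrophoblast, had 1 count over EBD2 (replicate 2), 1 over EBD5 (replicate 3) and 30, 76 and 82 counts in EBD6. The EBD6 libraries were at 5.35, 6.92 and 6.63 CPM and none overlapped EBD2 or EBD5. The ratio of EBD6 to EBD5 was 108 (95% counting interval 19.2 to 4300; edgeR adjusted p = 2.66e-06), and to EBD2 it was 114 (20.2 to 4520; edgeR adjusted p = 3.7e-06). Without the library that held the single count, EBD2 or EBD5 was at 0. Tpbpa passed the filter through EBD6 alone and so had to differ there. Tpbpb had 0 counts in all libraries, although its promoter window was 96.0% identical to that of Tpbpa over 250 aligned columns. Their longest transcripts were 86.3% identical over 438 aligned columns. No counts were assigned to Tpbpb, and whether the authors' counting gave reads of Tpbpb to Tpbpa was not tested.

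Prl3d1 (ENSMUSG00000057170, chromosome 13, 27094190 to 27100258, plus strand) encodes placental lactogen I of giant cells. It had 0 counts in all 6 libraries of EBD2 and EBD5 and 11, 20 and 23 in EBD6, or 1.96, 1.82 and 1.86 CPM. Against EBD5, Prl3d1 was at least 10.4-fold higher in EBD6 (edgeR adjusted p = 0.000168) and against EBD2 at least 10.9-fold higher (edgeR adjusted p = 0.000202). Prl3d1 passed the filter through EBD6 alone and so had to differ there. Its level is uncertain because Prl3d2 and Prl3d3 are near copies, with transcripts 98.4% and 98.5% identical and promoter windows 97.9% and 98.3% identical, and each held 5 counts in EBD6. How the authors' counting split reads between them was not tested.

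Ctsj (ENSMUSG00000055298, chromosome 13, 61000179 to 61005959, minus strand), a cathepsin gene of the placenta, had 1 count in EBD2 (replicate 3), 0 in EBD5 and 72, 154 and 171 in EBD6. At 12.8, 14.0 and 13.8 CPM the EBD6 libraries lay far above all others. Ctsj was at least 76.2-fold higher in EBD6 than in EBD5 (edgeR adjusted p = 1.02e-06), and the ratio to EBD2 was 240 (95% counting interval 42.9 to 9510; edgeR adjusted p = 1.59e-06). The gene passed the filter through EBD6 alone and so had to differ there.

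Tpbpa, Prl3d1 and Ctsj lie in clusters of duplicated placental genes on chromosome 13, and the rest of each cluster was counted as well. Over the whole table, genes with a count numbered 22421 to 22904 per library in EBD2, 22338 to 22555 in EBD5 and 23389 to 26891 in EBD6, the deeper group. Of 26 prolactin family genes with Prl3d1, 0 had a count in EBD2, 0 in EBD5 and 18 in EBD6, with 505 counts there. Of these 18, 8 held at least 10 counts in EBD6: Prl7d1 with 108, Prl2c5 with 87, Prl2a1 with 62, Prl3d1 and Prl6a1 with 54 each, Prl7a1 with 51, Prl2c3 with 31 and Prl2b1 with 10. Besides Prl3d1, 2 passed the filter, both through EBD6 alone, so that they had to differ there. Prl2c5 was at least 16.7-fold higher in EBD6 than in EBD5 (edgeR adjusted p = 6.7e-05), and Prl7d1 at least 20.7-fold (edgeR adjusted p = 0.000103), a call that DESeq2 did not make (adjusted p = 0.186). Prl, the pituitary hormone gene of the family, had 0 counts in all libraries.

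Of 9 placental cathepsin genes with Ctsj, counts summed to 5 in EBD2, 0 in EBD5 and 529 in EBD6. Ctsj held 397 of the EBD6 counts, Ctsq 69 and Ctsr 57, and Cts6, Cts8 and Ctsll3 had 3, 2 and 1. Ctsq was at least 13.2-fold higher in EBD6 than in EBD5 (edgeR adjusted p = 9.08e-05) and Ctsr at least 10.9-fold (0.000149); both had 0 counts in EBD2 and EBD5, passed the filter through EBD6 alone and so had to differ there. Ctsm went the other way, with 4 counts over EBD2 and 0 in EBD5 and EBD6, and Cts3 and Cts7 had none. The genes with at least 10 counts were thus neighbours, from Tpbpa through Ctsj and Ctsq to Ctsr, with Tpbpb at 0 on one side. Aligned bases of the promoter window of Ctsj were 79.7% identical to Ctsr (122 of 153) and 74.1% to Ctsq (126 of 170).

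**Figure D3:**
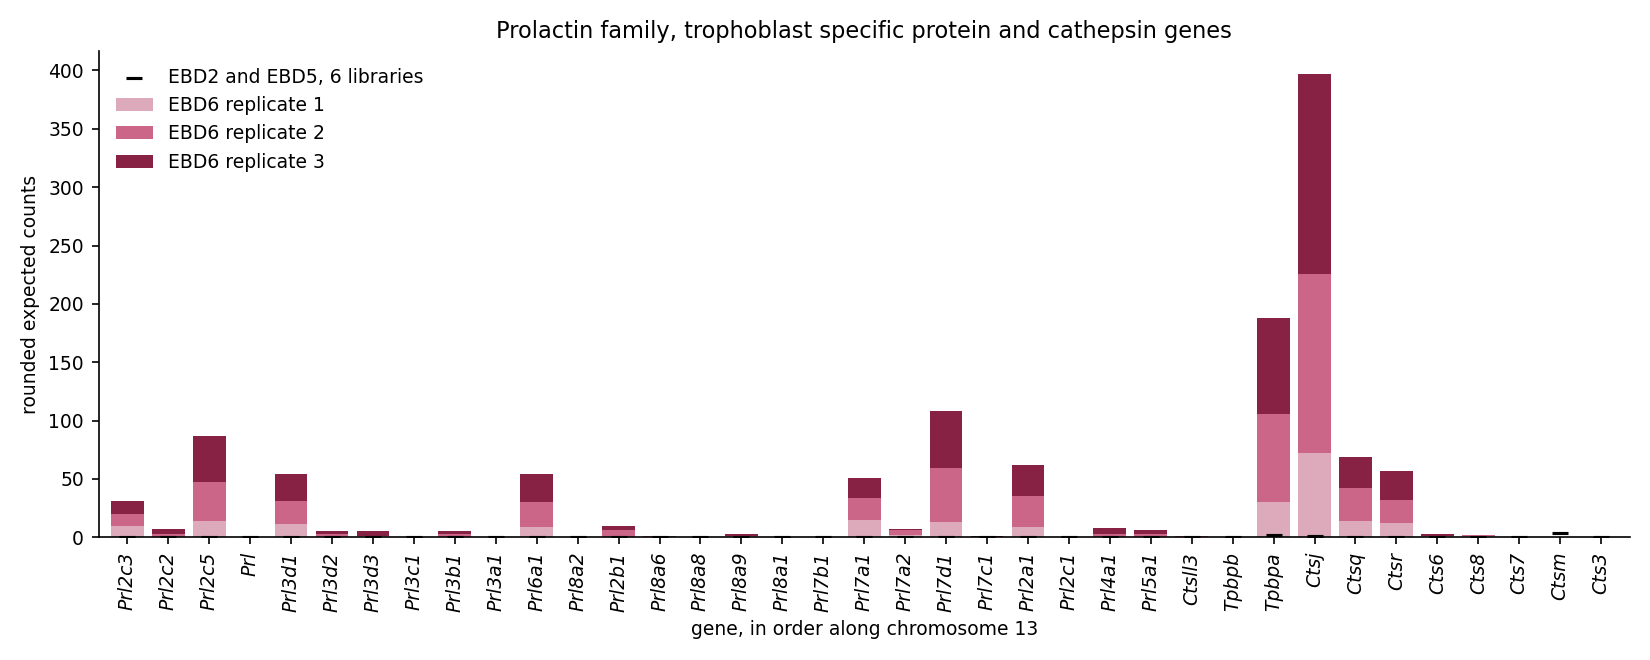
Rounded expected counts (vertical axis) of the prolactin family, Tpbpb, Tpbpa and the cathepsin genes in their order along chromosome 13 (horizontal axis); bars stack the 3 EBD6 libraries and black ticks give the sum of the 6 EBD2 and EBD5 libraries. Ctsj (397) and Tpbpa (188) hold the most counts, and the shallower EBD6 replicate 1 contributes to each of the tallest bars.

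Plac1 (ENSMUSG00000061082, chromosome X, 53069995 to 53240111, minus strand), a gene needed for normal placental growth, was higher in EBD5 than in EBD2 and highest in EBD6. It had 0.342, 0 and 0.534 CPM in EBD2, 6.58, 6.14 and 5.76 in EBD5 and 30.9, 28.5 and 28.8 in EBD6, without overlap. The rise to EBD5 was 20.4-fold (log2 4.35 ± 0.35; edgeR adjusted p = 1.18e-06; 5.08 without EBD2 replicate 3), and that from EBD5 to EBD6 4.82-fold (2.27 ± 0.15; edgeR adjusted p = 2.83e-07; 3.02 with the GC and length offset). From EBD2 to EBD6 it was 98.3-fold (6.62 ± 0.27; edgeR adjusted p = 7.02e-09; 7.35 without EBD2 replicate 3).

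Csf1r (ENSMUSG00000024621, chromosome 18, plus strand) encodes the receptor of colony stimulating factor 1, known on macrophages and on trophoblast. It had 0, 0 and 0.356 CPM in EBD2, 0.365, 0.170 and 0.960 in EBD5 and 12.3, 16.9 and 19.9 in EBD6. The EBD2 and EBD5 libraries overlapped and EBD6 stood above both. With 8 counts in EBD5 and 2 in EBD2, the ratio was 4.2 (95% counting interval 0.839 to 40.6) and did not pass (edgeR adjusted p = 0.171); without EBD2 replicate 3, which held both EBD2 counts, it did (adjusted p = 0.0441). Without EBD5 replicate 3, which held 5 of the 8 EBD5 counts, the log2 value was 1.11 in place of 1.94 (adjusted p = 0.52). Csf1r rose 32.4-fold from EBD5 to EBD6 (log2 5.02 ± 0.43; edgeR adjusted p = 1.91e-06; 5.86 without EBD5 replicate 3), and the ratio of EBD6 to EBD2 was 152 (41.7 to 1260; edgeR adjusted p = 1.55e-06). Csf1r passed the filter through EBD6 alone and so had to differ there. The gene overlaps the end of Hmgxb3 on the opposite strand, and the strand setting of the counting is not given in the sources used here.

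Csf1r was set beside a list of macrophage and blood markers. Of 16 listed, 5 were tested, and 1, Laptm5, rose in EBD6 against EBD5 (log2 1.04 ± 0.13; edgeR adjusted p = 3.11e-05; 0.38 with the GC and length offset), where 36.9% of all tested genes rose. For 5 of the 16, every EBD6 library was above every EBD5 library, beside 39.1% of tested genes. The sum of the 16 was 64.6 to 66.0 CPM in EBD2, 53.6 to 64.2 in EBD5 and 61.7 to 76.4 in EBD6. Most of it was Laptm5, Cd68, Runx1 and Itgam, whose courses differed. From EBD2 to EBD5 the mean of Runx1 went from 0.986 to 23.9 CPM. Those of Laptm5, Cd68 and Itgam went from 28.99, 23.2 and 9.2 CPM to 14.2, 13.8 and 4.26. Adgre1, Tyrobp and C1qa were at 0 in all 9 libraries, and Ptprc, the common leukocyte antigen gene, had 2 counts in each group. Other listed genes had more counts in EBD6, the deeper group, than in EBD5: Fcgr3 had 43 counts in EBD5 and 112 in EBD6 (not called, adjusted p = 0.06 by edgeR), Spi1 2 and 12, Fcer1g 0 and 6, Lyz2 0 and 3, Hba-a1 0 and 3 and Hbb-bh1, an embryonic globin gene, 0 and 22. In EBD2, Spi1 had 25 counts, Fcgr3 11 and Fcer1g 10, and Lyz2 and the globin genes had 0. Cd68 and Runx1 were at 12.4 and 17.8 CPM in EBD6, and were not called against EBD5. The part of blood or macrophage cells in the Csf1r values was not tested. The gene of the ligand, Csf1, had 3 counts in EBD2 (all in replicate 1), 6.97 ± 0.603 CPM in EBD5 and 27.2 ± 2.31 in EBD6. Its ratio of EBD5 to EBD2 was 41.0 (95% counting interval 13.7 to 202; edgeR adjusted p = 8.97e-07), and it was higher again in EBD6 than in EBD5 (log2 1.98 ± 0.16; edgeR adjusted p = 1.15e-06). The ligand gene was thus called higher in EBD5 than in EBD2 while the receptor gene was not; the difference between the genes was not tested.

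Per kilobase of exon, the order of the 10 genes changed between groups. In EBD2 Tfap2c led with 10.4 CPM per kb, followed by Syna with 1.68, and no other gene exceeded 0.249. In EBD5 the order was Tfap2c (13.9), Plac1 (4.34) and Gcm1 (1.18), each separated from the next by all libraries, while the lower 7 overlapped their neighbours. In EBD6 Tfap2c (28.0) and Plac1 (21.1) led, then Ctsj (9.29) and Syna (9.23), which overlapped, then Cdx2 (6.7). Tpbpa, Csf1r, Gcm1 and Prl3d1 (2.81, 2.64, 2.16 and 2.15 CPM per kb) overlapped in the order given, and Elf5 was lowest at 0.0919.

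Genes most like 3 of the members were named by the distance of their centred log2 CPM (prior count 0.5) over the 7 samples. For Cdx2 these were Cdh5, Trp63 and Adra2b at distances of 1.5, 1.51 and 1.52, and for Tpbpa Serpinb9g, Sct and Fezf1 at 1.48, 1.52 and 1.54. For Tfap2c they were Lrrc8a, Mbp and Atp11a at 0.15, 0.17 and 0.17. Serpinb9g, the nearest to Tpbpa, had 0.0416 CPM in EBD2, 0.063 in EBD5 and 14.1 in EBD6. Elf5 was too low for this measure.

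Of 26 other trophoblast transcription factors, 25 were tested. In EBD5 against EBD2, 13 rose and 6 fell (median log2 fold change 0.24), beside 34.9% and 35.1% of all tested genes and a median of -0.01. In EBD6 against EBD5, 20 rose and 3 fell (median 1.08; 5 fell with the GC and length offset), beside 36.9% and 33.3% of all tested genes and a median of 0.04. The 3 that fell were Eomes, Klf5 and Satb1. Eomes was highest in EBD5, with 27.65 ± 3.48, 132 ± 2.31 and 65.4 ± 1.84 CPM in EBD2, EBD5 and EBD6. Its log2 change from EBD5 to EBD6 was -1.01 ± 0.07 (edgeR adjusted p = 4.71e-07). Dlx3, a homeobox gene needed in the placenta, had 0.69 ± 0.27 CPM in EBD2, 1.37 ± 0.312 in EBD5 and 32.0 ± 2.39 in EBD6, a log2 rise of 4.55 ± 0.19 from EBD5 to EBD6 (edgeR adjusted p = 1.83e-08; 3.91 with that offset). With 11 counts over EBD2 and 23 over EBD5, Dlx3 passed the filter through EBD6 alone and so had to differ there. Pparg, a nuclear receptor of the labyrinth, had 1 count in EBD2, 2.62 ± 0.0979 CPM in EBD5 and 18.7 ± 0.574 in EBD6 (log2 2.84 ± 0.18 from EBD5; edgeR adjusted p = 2e-07). Cited1, a transcriptional cofactor, rose from 0.685 ± 0.0276 CPM in EBD2 to 42.1 ± 2.82 in EBD5 (5.93 ± 0.19; edgeR adjusted p = 1.26e-09; 6.58 with that offset).

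Of 34 further placental cell markers, 26 were tested. In EBD5 against EBD2, 16 rose and 4 fell (median log2 fold change 1.18), beside 34.9% and 35.1% of all tested genes. In EBD6 against EBD5, 24 rose and 1 fell (median 1.21), beside 36.9% and 33.3% of all tested genes. Krt7, a keratin of trophoblast and other epithelia, had 1.31 ± 0.612 CPM in EBD2, 7.08 ± 0.784 in EBD5 and 89.0 ± 0.981 in EBD6 (log2 3.65 ± 0.12 from EBD5; edgeR adjusted p = 4.86e-09). Sct, the gene of the hormone secretin, rose from 0.966 ± 0.472 CPM in EBD5 to 23.4 ± 1.84 in EBD6 (4.58 ± 0.24; edgeR adjusted p = 6.37e-08; 3.77 with the GC and length offset). Like other markers of this list with few counts outside EBD6, Sct passed the filter through EBD6 alone and so had to differ there. Lgals3, a galectin gene, was lowest in EBD5, as Syna was, with 6.69 ± 1.49 CPM in EBD2, 3.38 ± 0.153 in EBD5 and 46.4 ± 3.83 in EBD6. Others were higher in EBD5 than in EBD2: Rhox6, a placental homeobox gene, from 0.43 ± 0.138 to 13.7 ± 1.38 CPM (5.06 ± 0.3), Slco2a1, a prostaglandin transporter gene, by 5.32 ± 0.31, and Gjb2, a gap junction gene of the labyrinth, by 4.53 ± 0.22 (edgeR adjusted p = 1.08e-07, 9.27e-08 and 2.35e-08). Cyp17a1, a steroid hydroxylase gene of giant cells, had 0 counts in EBD2, and EBD5 exceeded it at least 6.66-fold (edgeR adjusted p = 0.0003).

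Of 19 trophoblast signalling genes 18 were tested. In EBD5 against EBD2, 11 rose and 5 fell (3 fell with the GC and length offset), and 11 rose and 6 fell in EBD6 against EBD5. For this list and the next ones, the shares of all tested genes were 34.9% higher and 35.1% lower in EBD5 against EBD2. In EBD6 against EBD5 they were 36.9% and 33.3%. Other extraembryonic lists took different courses. All 13 visceral endoderm markers rose in EBD5 against EBD2, from a summed 41.6 to 43.5 CPM to 3410 to 3430, and in EBD6 against EBD5 7 fell and 4 rose, with sums of 1910 to 2020 CPM. Of 8 tested extraembryonic mesoderm markers 5 rose in EBD5 against EBD2 and 5 rose and 1 fell in EBD6 against EBD5. The part of these tissues in the values of the 10 genes was not tested.

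**Figure D4:**
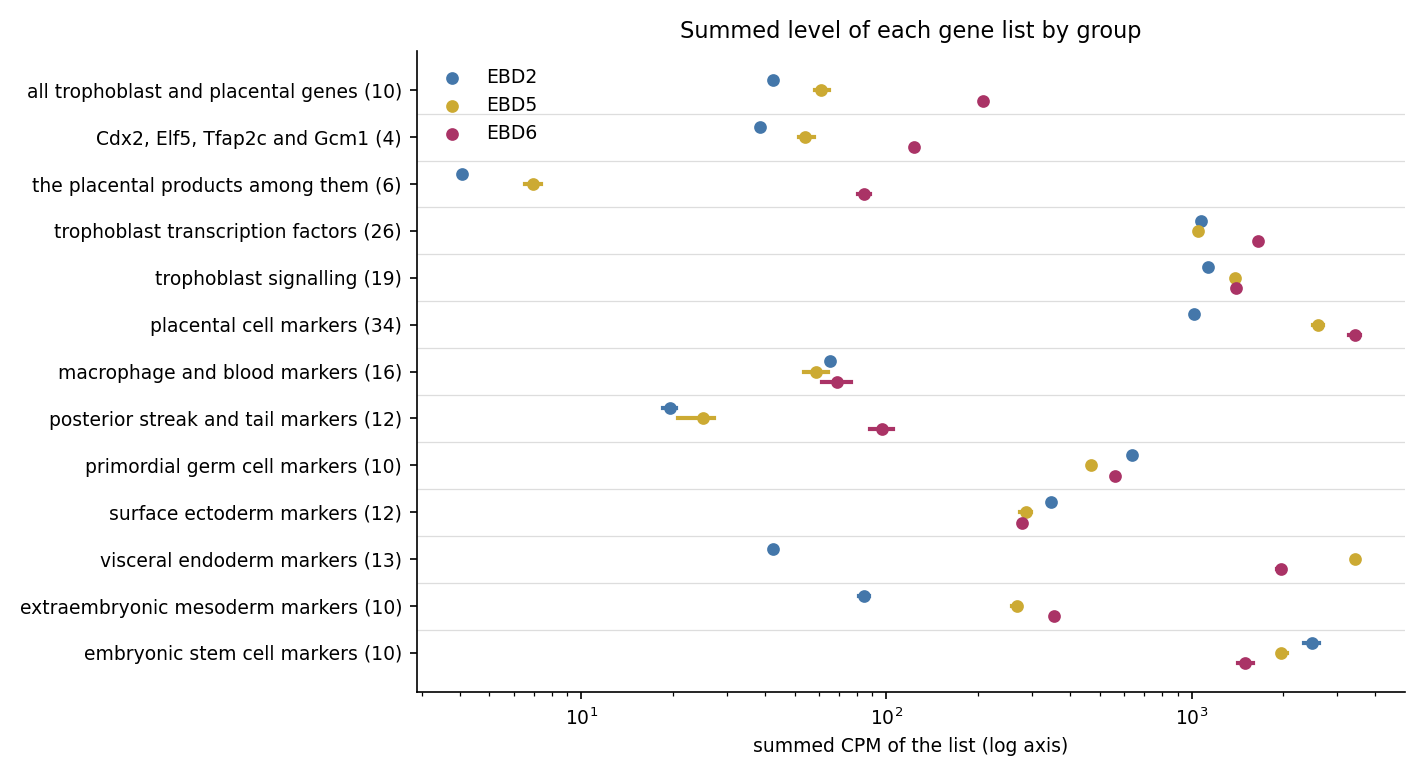
Summed CPM (horizontal axis, log scale) of the 10 genes, of their transcription factors and placental products, and of 10 other gene lists (vertical axis, number of genes in brackets); points are group means and lines run from the lowest to the highest sample. The placental products move from 4.06 and 6.97 CPM to 84.5 CPM. The macrophage and blood list stays between 53.6 and 76.4 CPM, a sum held mostly by Laptm5, Cd68, Runx1 and Itgam, whose courses differed.

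Libraries of EBD2 and EBD5 held 5613460 to 6376819 counts, and those of EBD6 5453399 to 11703388. No difference beyond sampling noise was found over genes within 1 pair of EBD2 libraries (replicates 1 and 2) or 1 pair of EBD6 libraries (replicates 2 and 3; chi-square p = 0.169), and either pair entered as 1 sample. Whether replicates are separate cultures is not stated in the labels, and the p-values therefore cover only the differences among these samples, possibly technical ones. EBD5 stood apart in an rRNA-derived gene, CT010467.1, at 0.726% to 0.811% of counts beside 0.0164% to 0.0246% in the other groups. Across 13752 protein-coding genes, which are not independent replicates, the log2 fold change in EBD6 against EBD5 had a Spearman rho of 0.56 with GC content, and rho was -0.37 in EBD5 against EBD2 and 0.17 in EBD6 against EBD2. The part of both in the values of the 10 genes was not tested, beyond the offset values given above.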

How the data were processed

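Polyadenylated RNA of 9 libraries was extracted with Trizol and prepared with a KAPA kit, per the labels' protocols. The build mm10 and the tools RSEM 1.3.30, STAR 2.7.10a, DESeq2 1.38.3, edgeR 3.40.2 and cutadapt 1.18 are named without a role, per the submitters' processing notes. The authors deposited expected counts per gene, which are estimates and were whole for 90.9% to 94.6% of values, unscaled to depth or length; release of the annotation and strand setting: not given in the sources used here. A second deposited table of expected counts repeated the EBD6 values in all 54233 rows. The row MR3, which names no gene (at most 0.0157% of a library), was left out.

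Counts were rounded. Replicates that a chi-square test over genes could not tell apart (EBD2 1 and 2, chi-square per gene 0.949; EBD6 2 and 3, 1.01) were summed, leaving 2, 3 and 2 samples. Genes kept by filterByExpr (16168) were scaled by TMM and tested in 1 fit of the 3 groups by edgeR 4.0.16 (R 4.3.3), with 4 residual degrees of freedom. Genes of the other lists with few counts outside EBD6 also passed the filter through EBD6 alone, so their rise there was set in part by the filter. CPM use TMM-scaled library sizes; the SE is the size of the log2 fold change over the square root of F. Groups of 0 counts were set at 3 counts over the group. The count of the other group was then taken as exact, so a value given as at least leaves out the error of that count. Groups of 1 to 3 counts were given as a ratio with its 95% Clopper-Pearson interval, which covers counting error only. The fit was tested on simulated data. Symbols and positions came from GENCODE M21, which held 54165 of the identifiers (99.9%).

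The members, the 12 other lists (193 genes), the motifs and the tests were chosen with earlier results of these data known. By rule, all 10 members are described, a comparison may name up to 6 called genes of a list with the largest change or a list's highest gene, prolactin and cathepsin genes are named from 10 counts, and likeness takes the 3 nearest genes. Laptm5, Wnt8a, Cdx1, Cdx4, Wnt3a, Sp5, Evx1, Mixl1, Wnt3, Fgf8, Csf1, the markers listed at 0 or with few counts, Synb, Tpbpb and cathepsins below 10 counts were named after their values were seen. So were Eomes, Klf5, Satb1, Epcam, Grhl3, Trp63, Wnt6, Tfap2b, Gabrp and Itgam. Alternatives were DESeq2 1.42.0 and its size factors, limma-voom (3.58.1), 2 other filters, only the groups compared, a fold of 1.5, 9 separate libraries, a replicate block, a GC and length offset, and leaving out each library.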

Additional observations from a re-analysis of the deposited data

How the results depend on the processing

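The 24 tested fold changes of the 10 genes had 449 values under alternatives, of which 439 stayed on the same side of the threshold, 9 lost the call, 1 gained it and 0 changed direction. Of the 9, 8 were Gcm1 in EBD6 against EBD5 and 1 was Tfap2c in EBD5 against EBD2; the gain was Csf1r in EBD5 against EBD2. The cause was not tested. The count of the 10 genes called ranged from 4 to 5 higher and was 1 lower in EBD5 against EBD2, from 8 to 9 higher in EBD6 against EBD5 and was 9 in EBD6 against EBD2 when a library was left out. Without EBD2 replicate 3 or EBD6 replicate 1 the group kept 1 sample, which is assumed to vary like the others.

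Tested against a fold of 1.5, the genes called over the whole table fell to 2972 higher and 2634 lower in EBD5 against EBD2, 2844 and 2473 in EBD6 against EBD5, and 2655 and 2263 in EBD6 against EBD2, by construction of that test. Same-numbered libraries did not deviate together (correlations of -0.08 to 0.05). No pairing by number was seen, but the check cannot exclude one, because near-identical libraries deviate mostly by counting noise. With the replicate number as a block over 9 separate libraries, 5821 genes were higher and 5691 lower in EBD5 against EBD2, 6071 and 5607 in EBD6 against EBD5 and 5832 and 5620 in EBD6 against EBD2, and the calls of the 10 genes stood at 4 higher and 1 lower, 9 higher and 9 higher. Among the lists, in EBD6 against EBD5, DESeq2 called 1 prolactin gene and 2 extraembryonic mesoderm markers higher, and without the filter 7 prolactin and 9 surface ectoderm genes were called higher. Depth limits Elf5 and most prolactin genes, whose counts stayed under 20 a group or did not pass the filter.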

Other observations

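Peg10, an imprinted gene of the placenta, had the highest mean CPM, not scaled to length, of the placental cell markers in EBD5 and EBD6, at 756 ± 14.9 CPM (SD, n = 3) and 902 ± 88.4 (n = 2), beside 148 ± 1.73 in EBD2 (n = 2). The lowest EBD6 library was above the highest EBD5 library, at 844 and 784 CPM. In EBD5 the libraries of Slc16a1 (625 to 808 CPM) overlapped those of Peg10. Per kilobase of exon, Slc16a1 (162 CPM per kb) and Krt18 (150) were above Peg10 (113) in EBD5. In EBD6 Krt18 (240) was above Peg10 (135), and Slc16a1 (97.6) was below it.

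A run of 11 bases, gggatttaaag, starts 33 bases before the RefSeq starts of both Tpbpa and Ctsj, within first exons of GENCODE M21. Tpbpb holds it at the same place, Ctsr 49 and Cts6 52 bases before their starts. In the other 42 pairs of promoters of different genes among the 10, the longest shared run was 6 to 10 bases, with a median of 8. The windows of Tpbpa and Ctsj were 69.6% identical over 125 aligned columns, where no other such pair aligned over more than 28 columns. This pair was singled out after its values were seen. Cts3 and Ctsm, whose windows were 93.4% identical over 244 columns, had 0 and 4 counts over all libraries.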
